A study of Mus musculus with 2 samples.

Results

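Genes for antibacterial and acute-phase proteins secreted by epithelium were followed through single-cell RNA sequencing of the mouse prostate. The 7 genes were Lcn2, Ltf, Pigr, Saa1, Saa3, Slpi and Lyz2, named as a set, out of 32285 genes in the deposited matrices. The mice were wild-type C57BL6 males, and the labels give neither their age nor how many were used. Prostate tissue was dissociated with papain and TrypLE, with a target of 5000 cells per library. One group was the ventral lobes, the secretory glands on the belly side of the prostate. The other was the proximal and periurethral region, where the prostatic ducts join the urethra. With a single library for each group (1 and 1), differences between groups are without replicates, and neither tests nor p-values are given. The 10x Genomics 3' kit was version 2 for the ventral and version 3 for the proximal library, and what comes from the region and what from the kit cannot be told apart.

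Glandular epithelium defends its lumen by secretion. Lipocalin 2 (Lcn2) captures bacterial siderophores and lactoferrin (Ltf) binds iron itself, so both withhold iron from bacteria. Serum amyloid A proteins (Saa1, Saa3) are acute-phase lipid-binding proteins, best known from liver for Saa1 and from inflamed epithelium, macrophages and fat for Saa3. Slpi inhibits serine proteases of neutrophils and also acts on bacteria. Pigr is the receptor that carries polymeric immunoglobulin A across epithelium into secretions. Lyz2 encodes the lysozyme of macrophages and neutrophils, an enzyme that cuts the bacterial cell wall, and in this set it is the gene best known from myeloid cells. In inflamed epithelium, interleukin and bacterial signals acting through NF-kB and C/EBP factors are known to raise Lcn2 and the serum amyloid genes.

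The ventral library held 49356586 unique molecular identifiers (UMIs, counts of captured RNA molecules) and the proximal library 97817603. After filtering, 1988 ventral cells (median 25759 UMIs) and 3705 proximal cells (median 15260 UMIs) were used, and the libraries shared 0 cell barcodes. Cells were clustered within each library with the 7 genes left out, and clusters were named from fixed markers, with "-like" added because the names were rebuilt here and may differ from the study's own. The ventral library gave 1704 distal luminal-like, 141 basal-like, 86 proximal luminal-like, 30 macrophage-like and 27 T or NK-like cells. In the proximal library there were 707 distal luminal-like, 615 proximal luminal-like, 912 basal-like, 26 seminal vesicle-like, 516 fibroblast-like, 61 endothelial-like, 79 macrophage-like, 27 T or NK-like and 6 smooth muscle-like cells. In that library 756 cells, in a cluster led by Prol1, Smr2 and Pip and another led by Clca1, Areg, Krt4 and Ly6d, stayed unnamed. Among the 10 leading genes of the first, erythroid markers (Hbb-bs, Hba-a1 and Hba-a2) outnumbered those of its best-scoring class. In the second, markers of periurethral cells did. Levels are in CPM, the gene's summed UMIs over all UMIs of the class on the usual scale. Intervals in brackets are exact, at 95%, and describe counting error only. A sum over a class cannot tell fewer producing cells from less RNA per cell, so shares of cells with a UMI are given too, also after each cell was thinned to 1000 UMIs.

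One feature of the ventral proximal luminal-like cluster bears on several genes and is given first. Of its 86 cells, 28 took between 6.36% and 47.5% of their UMIs from Sbp and Spink1, the main secretory products of ventral luminal cells, and the other 58 took between 0.844% and 2.65%. The 28 cells were deeper (median 19210 against 9300 UMIs) and poorer in proximal luminal markers: Wfdc2 was found in 32.1% of them against 94.8%, and Krt7 in 50% against 86.2%. Distal luminal-like cells of the same library took a median of 47.6% from Sbp and Spink1. Doublets were largely still present, since the doublet caller marked 0.193% of 5704 cells. Levels of the genes in this class, other than Lyz2 with its 1 UMI there, are therefore given with and without the 28 cells, and the part of mixed cells in the results was not tested.

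The 30 bases around a match to a C/EBP motif, TTNNGCAA on either strand, are shown for Lcn2, Saa1 and Saa3 because these 3 genes were carried together by 1 cell, described further on. They come from RefSeq's GRCm38.p6 tables and are written 5′ to 3′ on the gene's strand, which is minus for all 3 genes, with the match in capitals. The Lcn2 stretch is chr2:32387937-32387966, the Saa1 stretch is chr7:46743144-46743173 and the Saa3 stretch is chr7:46715757-46715786. Those of Saa1 and Saa3 lie before the start used here but inside the full span annotated for the gene.
Lcn2: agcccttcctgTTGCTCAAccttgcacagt
Saa1: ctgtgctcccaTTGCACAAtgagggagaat
Saa3: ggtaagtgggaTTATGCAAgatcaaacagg
In the 250 bases before the start each of these genes held 1 match, at -216 to -209 bases from the start in Lcn2, -182 to -175 in Saa1 and -99 to -92 in Saa3. Ltf (-75 to -68) and Slpi (-241 to -234) also held 1 match each, and Pigr and Lyz2 held none in the 300 bases searched, of which 50 follow the start. The motif is common: 10.8% of 32817 RefSeq promoters of that length held it. An NF-kB motif, GGG with any 2 bases and then TTTCC (1.63% of promoters), and a looser one that includes it, GGG with any 3 bases and then TTCC (5.56%), matched none of the 7 windows, nor did TATAAA (13.6%), while TTCNNNGAA, a STAT motif (8.29%), matched only in Pigr. A match is a run of letters and not a shown binding site, and no match says only that these letters are not in the window.

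Lcn2 (2:32384637-32387739) was highest in basal-like cells among the named classes of both libraries. Its level in ventral basal-like cells was 908 CPM (interval 840 to 980), from 659 UMIs in 121 of 141 cells. In proximal basal-like cells it was 154 CPM (147 to 161), from 1895 UMIs in 521 of 912 cells. Many cells shared these sums: 28 ventral and 108 proximal basal-like cells were needed to reach 50% of them, and the top cell held 10.0% and 1.74%. Of basal-like cells, 85.8% of the ventral and 57.1% of the proximal ones had an Lcn2 UMI, and 54.3% and 13.9% after thinning. As a background, 0 of 30 ventral macrophage-like cells (median 3751 UMIs), which allows a share with a UMI of up to 10.0%, and 0 of 79 proximal ones (median 11922 UMIs) held a UMI. Distal luminal-like cells were near that background at 0.955 CPM (ventral) and 1.52 CPM (proximal).

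Within the proximal basal-like cells the level was uneven. The clusters led by Krt14 (512 cells) and by Trp63 (176 cells) had 227 and 234 CPM of Lcn2, and the cluster led by Grp, Ivl and Aqp3 (224 cells) had 16.3 CPM (12.7 to 20.6). Put together, the first 2 exceeded the last by 14.0-fold (11.002 to 18.0), and they held 96.3% of the class's Lcn2 UMIs with 75.4% of its cells. The split was chosen after the values were seen. Lcn2 was itself among the 10 leading genes of the clusters led by Krt14 and Trp63, although it took no part in the clustering, and the chemokine gene Cxcl10 was among those of the first.

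Outside basal-like cells, large Lcn2 sums came from few cells, except in seminal vesicle-like cells of the proximal library. Ventral proximal luminal-like cells summed to 469 UMIs (381 CPM), of which 1 cell held 392, or 83.6%. A second cell held 48, and 12 of the 86 cells held any. Without the 28 cells rich in Sbp and Spink1 the class had 10 UMIs in 8 cells, 15.5 CPM. Proximal luminal-like cells of the proximal library, with no such cells among them, had 1.998 CPM (1.44 to 2.70) from 42 UMIs in 33 of 615 cells. Seminal vesicle-like cells there had 127 CPM (106 to 152), from 121 UMIs in 15 of 26 cells, with 26.4% in the top cell. That interval overlaps the 147 to 161 CPM of proximal basal-like cells. The shares with a UMI were 57.7% and 57.1%, and 3.85% and 13.9% after thinning. Endothelial-like cells had 24 UMIs, 14 of them in 1 cell. The unnamed clusters had 269 UMIs, of which 155 lay in 1 deep cell of 106071 UMIs.

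That unnamed cell also carried other secreted defence genes. It held 27 UMIs of Ltf, the most in either library, and 42 of Pigr, but 0 of Saa1, Saa3 and Slpi. Per UMI it was matched or passed by 2 of the other 373 cells of its cluster for Ltf, and by 21 for Pigr. It further held 392 UMIs of Wfdc18, 168 of Wfdc15b and 24 of Wfdc12, members of the whey acidic protein family to which Slpi belongs, and 42 of Lrg1, an acute-phase glycoprotein. Psca and Krt4, which its cluster carries at 1894 and 200.5 CPM in the other 373 cells, had 1 UMI each in it. Other genes of the antibacterial list were not high in it. Wfdc2 had 1 UMI, beside 979 CPM in the other 373 cells, Wfdc3 and Rnase4 had 0, and Pglyrp1 had 8 (75.4 against 221 CPM).

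**Figure D1:**
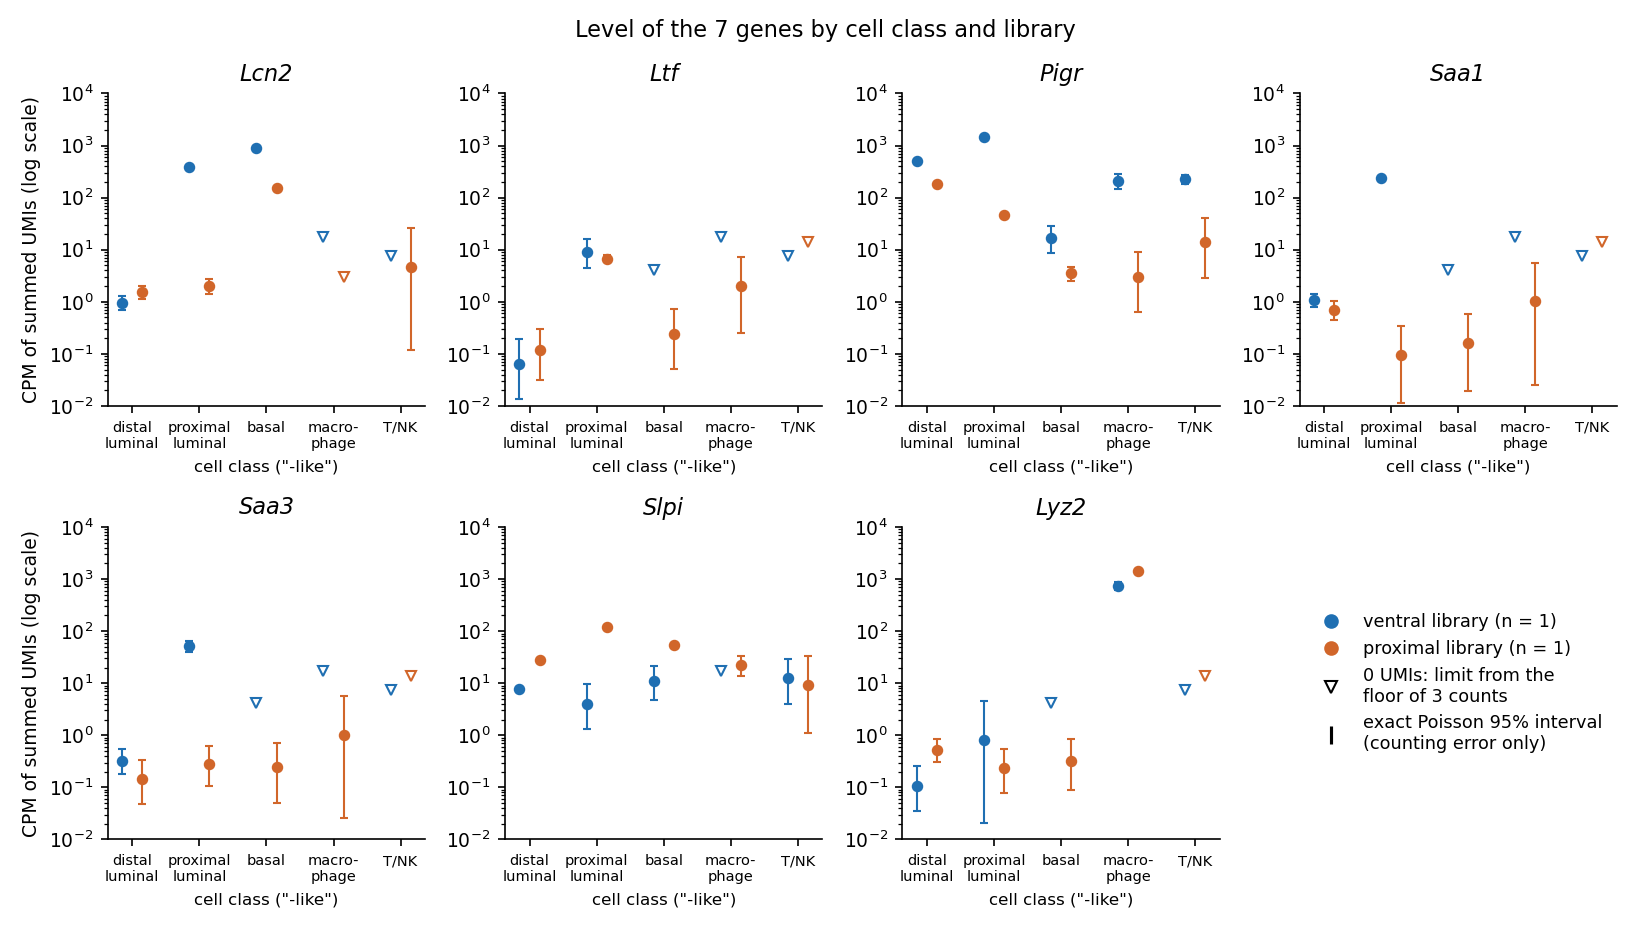
Level of each of the 7 genes, as CPM of summed UMIs on a log scale, in 5 cell classes of the ventral (blue) and proximal (orange) library, 1 library each; bars are exact Poisson 95% intervals for counting error, and open triangles mark the limit of 3 counts where a class had 0 UMIs. Lcn2 is highest in basal-like cells of both libraries (908 and 154 CPM), Lyz2 in macrophage-like cells (751 and 1453 CPM), and Saa1 and Saa3 stand out only in ventral proximal luminal-like cells.

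Saa1 (7:46740497-46743181) and Saa3 (7:46711998-46719615), neighbours on chromosome 7, were close to absent from nearly all cells. The level of Saa1 was 233 CPM (207 to 262) in the ventral proximal luminal-like class, but its 287 UMIs lay in 5 of 86 cells, with 225, 49, 9, 3 and 1 UMIs. Saa3 summed to 63 UMIs in that class (51.2 CPM), of which 62 were in the cell with 225 Saa1 UMIs. All 5 Saa1 cells were among the 28 rich in Sbp and Spink1, and the other 58 cells held 0 Saa1 UMIs and 1 of Saa3. Without the top cell the class fell to 51.2 CPM of Saa1 and 0.826 CPM of Saa3. Elsewhere the counts were scattered. Distal luminal-like cells of the ventral library had 50 Saa1 UMIs over 44 of 1704 cells, at most 2 in a cell, and 15 of Saa3. Epithelial-named cells of the proximal library had 28 Saa1 and 14 Saa3 UMIs in 2260 cells, with at most 3 Saa1 UMIs and 1 Saa3 UMI in a cell.

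The top Saa1 cell was the same as the top Lcn2 cell of the ventral library. It held 19425 UMIs, 392 of them from Lcn2, 225 from Saa1, 101 from Pigr, 62 from Saa3, 31 from Saa2, the neighbouring acute-phase gene, and 4 from Ltf, with 0 from Slpi and Lyz2. Saa2 had 0 UMIs in the other 85 cells of its class. From the fixed list of other acute-phase genes, Lrg1 stood at 135 UMIs, where the other 85 cells summed to 159. Of the list of receptors, inducers and inhibitors, Nfkbia had 24 UMIs, Cebpd 9, Nfkbiz 7 and Socs3 4 in this cell. Of the other cells, 3, 3, 6 and 0 matched or passed its level of each per UMI. Nfkbia and Socs3 encode inhibitors of NF-kB and STAT3 signals and not inducers. Others on that list were not high: Stat3, Nfkb1, Nfkb2, Rela, Tlr4 and Tnfrsf1a had 0 UMIs and Cebpb had 1 (0.930 times the rest). The acute-phase genes Lbp, Cd14 and Cp, found in the other 85 cells, also had 0, as did the antibacterial genes Wfdc2 and Pglyrp1. It held 0 UMIs of all 9 macrophage markers and took 6.36% of its UMIs from Sbp and Spink1, the lowest of the 28. The second Saa1 cell, with 49 UMIs, held 5 of Lcn2, and the third, with 9, held 14 of Lcn2. The second Lcn2 cell of the class, with 48 UMIs, held 0 of Saa1.

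**Figure D2:**
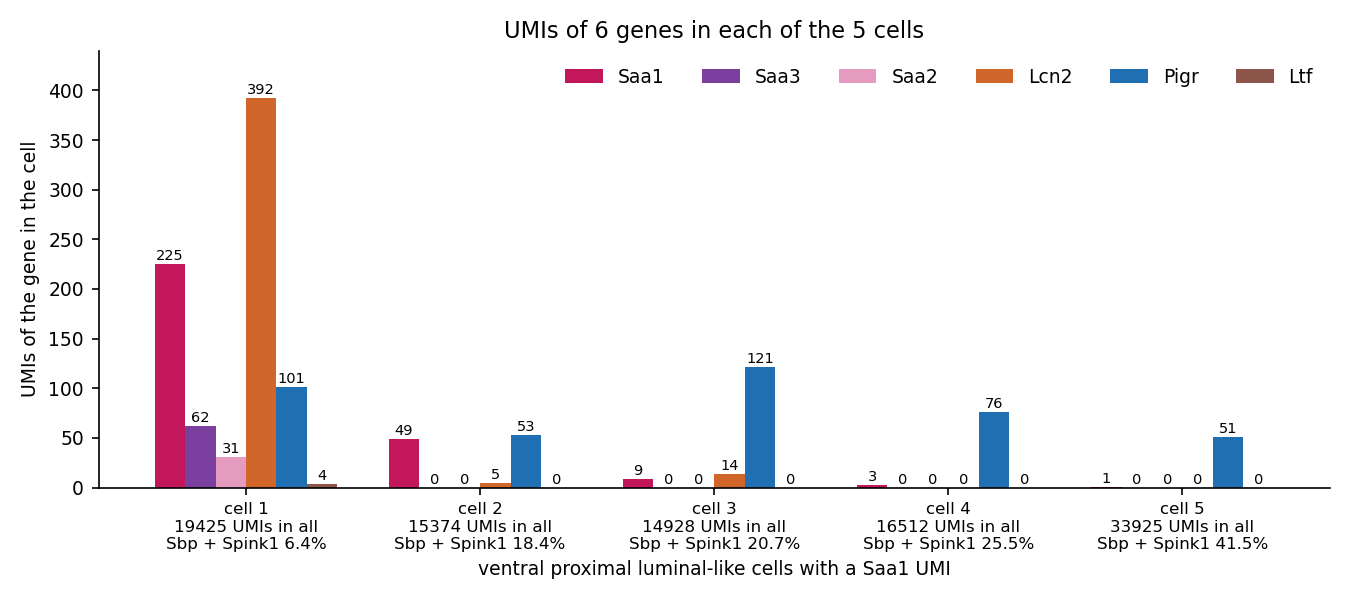
UMIs of Saa1, Saa3, Saa2, Lcn2, Pigr and Ltf (vertical axis, linear from 0) in each of the 5 ventral proximal luminal-like cells with a Saa1 UMI; labels give each cell's total UMIs and its share from Sbp and Spink1. Cell 1 alone combines 392 Lcn2, 225 Saa1, 62 Saa3 and 31 Saa2 UMIs, while Pigr lies between 51 and 121 UMIs in all 5.

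Ltf (9:111019292-111042766) was sparse and lay in proximal luminal-like and unnamed cells. Proximal luminal-like cells had 8.94 CPM (4.46 to 16.0; 11 UMIs in 8 of 86 cells) in the ventral library and 6.75 CPM (5.69 to 7.96; 142 UMIs in 57 of 615 cells) in the proximal library. These levels did not differ beyond counting error, with a proximal over ventral ratio of 0.755 (0.410 to 1.55). The ventral level moved little without the 28 cells rich in Sbp and Spink1, at 9.33 CPM from 6 cells. The clusters of the proximal library led by Clca1 and by Prol1 had 11.6 and 9.67 CPM. Distal luminal-like cells had 3 ventral and 4 proximal UMIs, proximal basal-like cells 3, and macrophage-like cells 0 ventral and 2 proximal UMIs. Ltf was thus held by a minority of its cells: 9.30% and 9.27% of proximal luminal-like cells had a UMI, and 0% and 0.814% after thinning.

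Slpi (2:164354070-164356507) had its highest levels among named classes in proximal luminal-like and basal-like cells of the proximal library, and no named ventral class passed 12.4 CPM. In the proximal library proximal luminal-like cells led the named classes at 122 CPM (117 to 127), with a UMI in 62.9% of cells. Basal-like cells followed at 53.2 CPM and distal luminal-like cells at 27.7 CPM. The unnamed clusters had 109 (led by Prol1) and 160 CPM (led by Clca1), and the proximal luminal-like cluster with Clu and Itgae among its leading genes had 150 CPM. Seminal vesicle-like cells, as deep as 41445 UMIs at the median, had 1 UMI in 26 cells (1.05 CPM), which serves as a background of 3.85% of cells. Fibroblast-like cells had 31.8 CPM and macrophage-like cells 22.4 CPM, the latter with 15 of 22 UMIs in 1 cell. After thinning, 8.79% of proximal luminal-like, 6.14% of basal-like and 2.85% of distal luminal-like cells had a UMI. Fibroblast-like cells were then at 2.94% and macrophage-like cells at 2.56%, so the distal luminal-like share does not stand above theirs. In the ventral library distal luminal-like cells had 7.66 CPM (353 UMIs), basal-like cells 11.03 CPM (8 UMIs) and proximal luminal-like cells 4.07 CPM (5 UMIs), with overlapping intervals. The T or NK-like cells had 5 UMIs, 4 of them in 1 cell.

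Slpi was therefore higher in the proximal library in each of the 3 classes compared, by 3.61-fold (3.19 to 4.09) in the distal luminal-like class. The ratio was 4.82 (2.43 to 11.2) for basal-like cells. It was largest for proximal luminal-like cells, 122 against 4.07 CPM, with an interval of 12.8-fold to 92.5-fold. Without the 28 cells rich in Sbp and Spink1 the ventral level was 4.66 CPM, from 3 UMIs, and the interval 8.94-fold to 127-fold. All genes tested shifted as well, with a median log2 ratio of 0.83, 0.11 and 0.26 in the 3 classes, against 1.85, 4.91 and 2.27 for Slpi. In distal luminal-like cells the classes hold different clusters. Restricted to the proximal cluster led by Scgb2b7 and Spink5 (162 cells), Slpi had 53.4 CPM, 7.31-fold (6.35 to 8.43) above the 7.30 CPM of the 1594 ventral distal luminal-like cells outside the cluster led by Msmb. That restriction was chosen after the values were seen.

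Pigr (1:130826684-130852249) was held by luminal and unnamed cells, and its level varied between luminal clusters. In the ventral library distal luminal-like cells had 507 CPM (501 to 514), with a UMI in 89.9% of cells and 32.3% after thinning. Basal-like cells had 16.5 CPM (12 UMIs in 10 of 141 cells at a median of 4933 UMIs), a background share of 7.09%, and 2.14% after thinning. Of the 8 ventral distal luminal-like clusters, 7 lay between 326 and 682 CPM, and the cluster led by Msmb and Pbsn lay at 62.7 CPM (53.9 to 72.5). Among the 7, one was led by Cxcl10 and Atf3 and another by the heat-shock genes Hspa1a and Dnajb1, at 679 and 465 CPM. In the proximal library the cluster led by Scgb2b7 and Spink5 had 480 CPM (467 to 494), while the other 4 distal luminal-like clusters lay between 54.1 and 65.8 CPM, with 64.7 CPM (60.1 to 69.7) in the one led by Msmb.

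A cluster led by Msmb with a low Pigr level was thus present in both libraries. Distal luminal-like cells as a whole had 184.6 CPM in the proximal library, 0.364 times the ventral level (0.354 to 0.374). Between the Scgb2b7 cluster and the ventral cells outside the Msmb cluster the ratio was 0.894 (0.867 to 0.922), and the Msmb clusters of the libraries had overlapping intervals. In the ventral library the cells outside the Msmb cluster exceeded it by 8.57-fold (7.40 to 9.97). In the proximal library the Scgb2b7 cluster exceeded the rest of the class by 7.95-fold (7.49 to 8.43). These cluster contrasts were chosen after the values were seen, and Pigr was among the 10 leading genes of the Scgb2b7 cluster although it took no part in the clustering.

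Proximal luminal-like cells gave the opposite order in the libraries. In the ventral library the proximal luminal-like level of Pigr was 1450 CPM (1384 to 1519), 2.86-fold (2.72 to 3.001) above distal luminal-like cells. It had 46.0 CPM (43.2 to 49.0) in those of the proximal library, 0.249 times (0.233 to 0.267) the distal luminal-like level, and there 52.2% of cells had a UMI. The cluster led by Scgb2b7 held 77.0% of the Pigr UMIs of those distal luminal-like cells. The other 545 had 60.4 CPM (57.3 to 63.6), less than 2-fold above the proximal luminal-like level. The 28 ventral cells rich in Sbp and Spink1 had 2040 CPM, above both the 912.5 CPM of the other 58 cells and the 507 CPM of distal luminal-like cells. Without them the ventral log2 ratio fell from 1.52 to 0.85, under the 2-fold limit, and 55 of the 58 cells still held a UMI. Ventral macrophage-like cells had 36 Pigr UMIs, all in 4 of 30 cells and 22 in 1 cell. T or NK-like cells had 91, 45 of them in 1 cell. Sbp and Spink1 passed 5% of the UMIs in 2 of these macrophage-like and 16 of 27 T or NK-like cells, whose part in the counts was not tested. Proximal macrophage-like cells had 3 UMIs in 79 cells. The unnamed cells of the proximal library had 1356 Pigr UMIs, at 75.5 CPM (71.6 to 79.7), with a UMI in 44.8% of cells.

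Ligands of Pigr were barely found. Igha, the heavy chain of immunoglobulin A, had 1 UMI in all kept ventral cells and 0 in the proximal library, and Jchain, which joins the polymer, had 5 and 38 UMIs. Igkc had 98 UMIs in the ventral library, 95 of them in 1 distal luminal-like cell, and 51 in the proximal library, 42 of them in 3 T or NK-like cells.

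**Figure D3:**
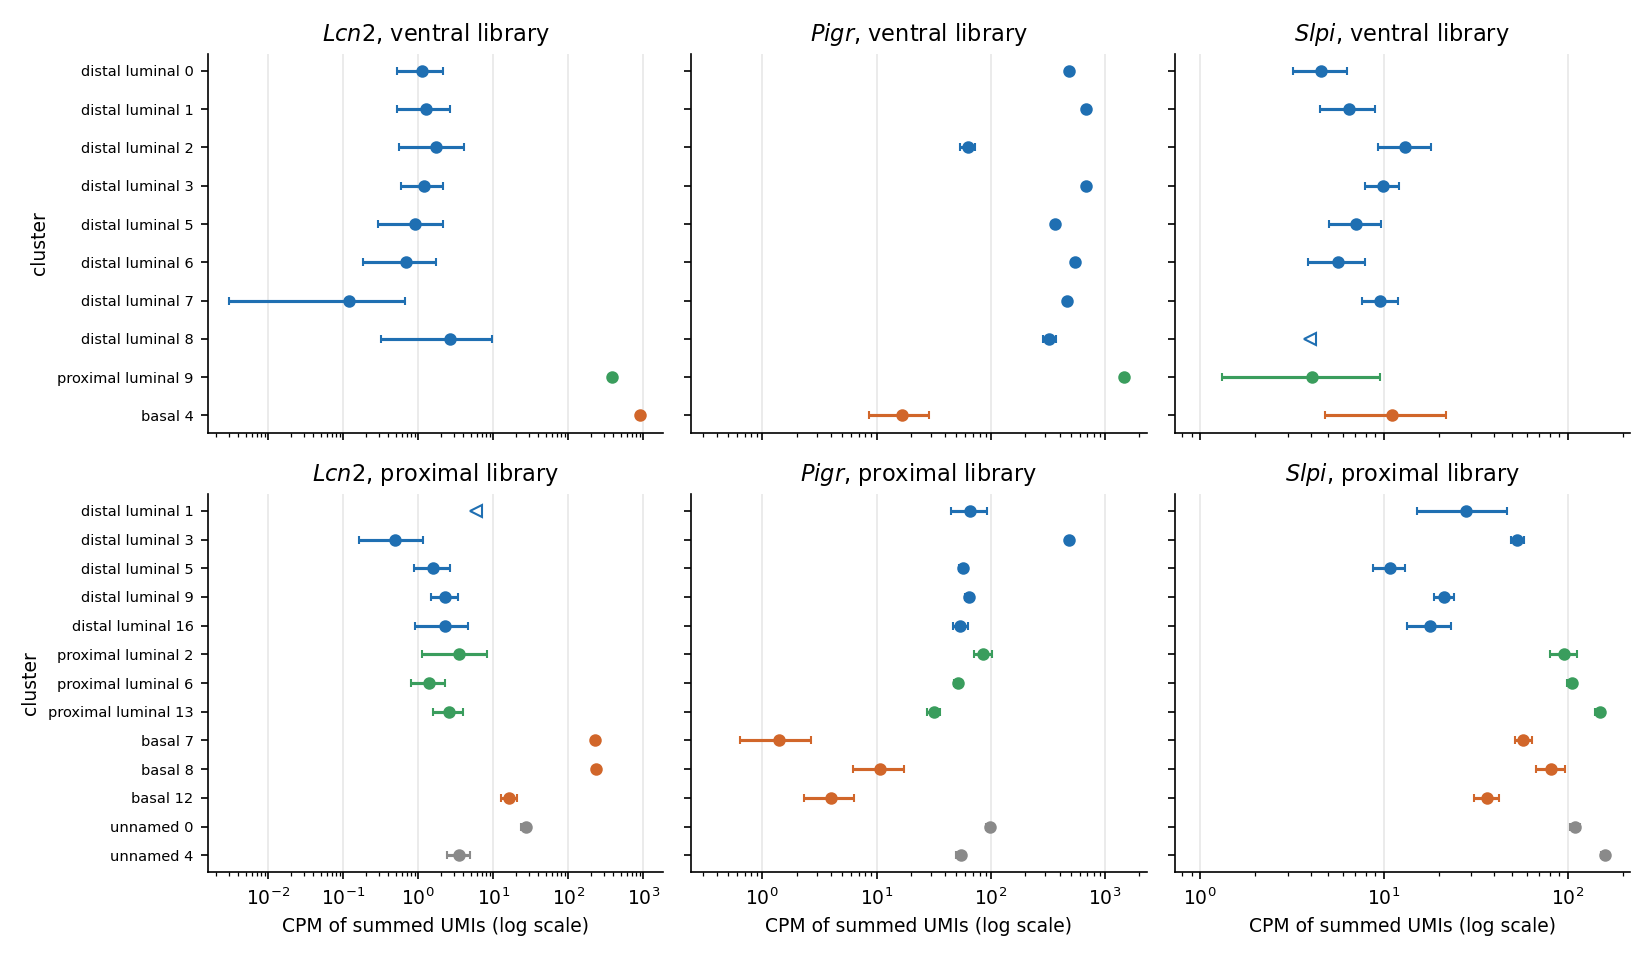
CPM of summed UMIs on a log scale (horizontal) of Lcn2, Pigr and Slpi in each epithelial cluster and unnamed cluster (vertical) of the ventral (top) and proximal (bottom) library; colour gives the class, bars are exact Poisson 95% intervals and open triangles the limit of 3 counts at 0 UMIs. Pigr in the ventral library is low in distal luminal cluster 2, led by Msmb (62.7 CPM), and in the proximal library high in distal luminal cluster 3 (480 CPM); Lcn2 separates proximal basal clusters 7 and 8 from 12.

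Lyz2 (10:117277541-117282272) was a gene of macrophage-like cells and close to absent from epithelium. Macrophage-like cells held 95.6% of its UMIs in the ventral library (130 of 136) and 96.3% in the proximal library (1430 of 1485). Their levels were 751 CPM (627 to 892) and 1453 CPM (1378 to 1530). Without the 2 ventral macrophage-like cells that took over 5% of UMIs from Sbp and Spink1 the ventral level was 1208 CPM (1006 to 1440). Epithelial-named cells had 6 UMIs in 1931 and 27 UMIs in 2260 cells, or 0.125 and 0.395 CPM, so that macrophage-like cells were 6009-fold (2687 to 16676) and 3680-fold (2518 to 5604) higher. Outside macrophage-like cells a Lyz2 UMI was found in 4 ventral and 38 proximal cells, of which 0 and 7 also held at least 2 macrophage markers. Lyz1, the near-identical lysozyme gene of Paneth cells, had 0 UMIs in the ventral library and 103 in 6 proximal macrophage-like cells. What became of reads shared by the pair was not tested.

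Macrophage-like cells were uneven in Lyz2. A UMI was found in 17 of 30 ventral and 48 of 79 proximal cells, and the top cell held 40.8% and 15.4% of the class's UMIs, with 53 and 220 UMIs. The 48 proximal cells with Lyz2 (median 13363 UMIs) had 6991 CPM of Apoe and 96.9 CPM of Mrc1, against 1426 and 3.54 CPM in the 31 cells without (median 8624 UMIs). Markers of other myeloid cells were uneven too: Ccr2, a monocyte marker, had 45.6 against 0 CPM, and the dendritic cell markers Flt3 and Cd209a had 39.9 and 51.3 CPM against 3.54 CPM each, while Itgax had 71.3 against 145 CPM. In the ventral library Cd209a had 0 UMIs in cells with Lyz2 and 7 in those without, and Flt3 had 0 in both. At least 2 UMIs of at least 2 markers were found for dendritic cells in 13 and for monocytes in 8 of these 79 cells, and their part in the difference was not tested. C1qa, C1qb and C1qc, the complement chains of resident macrophages, were lower in proximal cells with Lyz2, with C1qb at 1858 against 3398 CPM. Lower too were Cd68 (393 against 644 CPM), Ms4a7 (388 against 849), Tyrobp (1257 against 1695), Adgre1 (162 against 195) and Csf1r (259 against 304). Mrc1 was thus the only higher one of the 9 macrophage markers. Among ventral cells Apoe had 15080 CPM in the 17 cells with Lyz2 (median 4821 UMIs) and 6278 CPM in the 13 without (median 2831 UMIs), and C1qb 2529 against 5302 CPM. Both cells rich in Sbp and Spink1 were among the 17, and the other 15 had 29524 CPM of Apoe and 4852 CPM of C1qb, with C1qa at 6225 against 4616 CPM and C1qc at 3891 against 2638 CPM, so these 2 chains did not keep the order of the proximal library there. The cells were divided by Lyz2 itself, and the deeper cells are more likely to show it, so these values are a description. Lcn2 was not found in any of the 30 and 79 macrophage-like cells. Neutrophils, the other known source of Lcn2, Ltf and Lyz2, were looked for: at least 2 UMIs of at least 2 of 7 markers were found in 2 ventral and 0 proximal cells. Both ventral cells were distal luminal-like with S100a8 and S100a9 only, and each held 2 Lcn2 UMIs and 1 of Ltf. One of them also held 3 of the 6 epithelial Lyz2 UMIs.

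**Figure D4:**
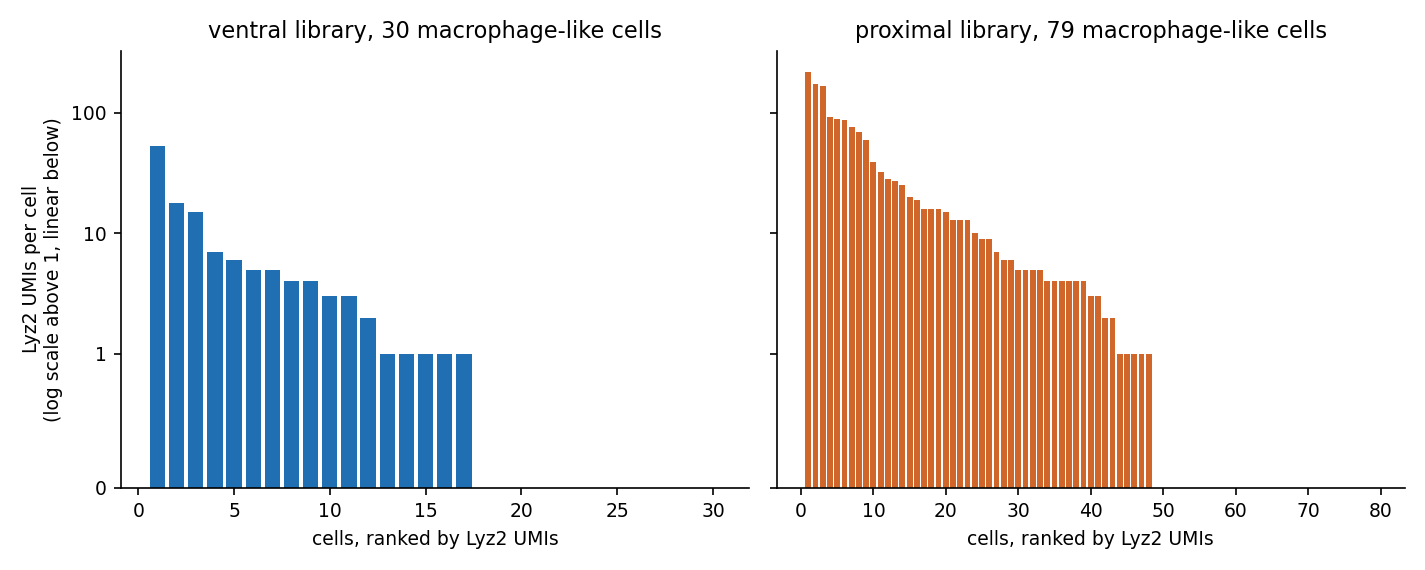
Lyz2 UMIs in each macrophage-like cell (vertical axis, log above 1 and linear below), cells ranked by Lyz2 UMIs, in the ventral (30 cells) and proximal (79 cells) library. Cells without a bar, 13 and 31 of them, held 0 UMIs, and the top cells held 53 and 220.

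How far single cells carried the sums differed by gene. Over all epithelial-named cells of the ventral library, the top cell held 79.5% of Saa3, 66.8% of Saa1 and 33.4% of Lcn2, and these were 1 and the same cell. For Pigr and Slpi, whose top cells were other cells, the share was 0.890% and 2.19%. The top cell thus passed 10% for 3 of the 5 genes with at least 50 UMIs, and for 2.54% of all genes with as many. Saa3 is among the 5 only through its top cell, with 16 UMIs outside it, so its place in this count was fixed by the UMI limit. Of proximal genes 0 of 4 passed, against 2.54% of all genes, with Ltf at 10.0%, Pigr at 4.51%, Lcn2 at 1.56% and Slpi at 1.03%. The 10 top cells held 51.8% of ventral Lcn2, 88.4% of Saa1 and 96.2% of Saa3, but 5.78% of Pigr, and in the proximal library 51.3% of Ltf, 23.7% of Pigr, 10.4% of Lcn2 and 7.09% of Slpi.

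**Figure D5:**
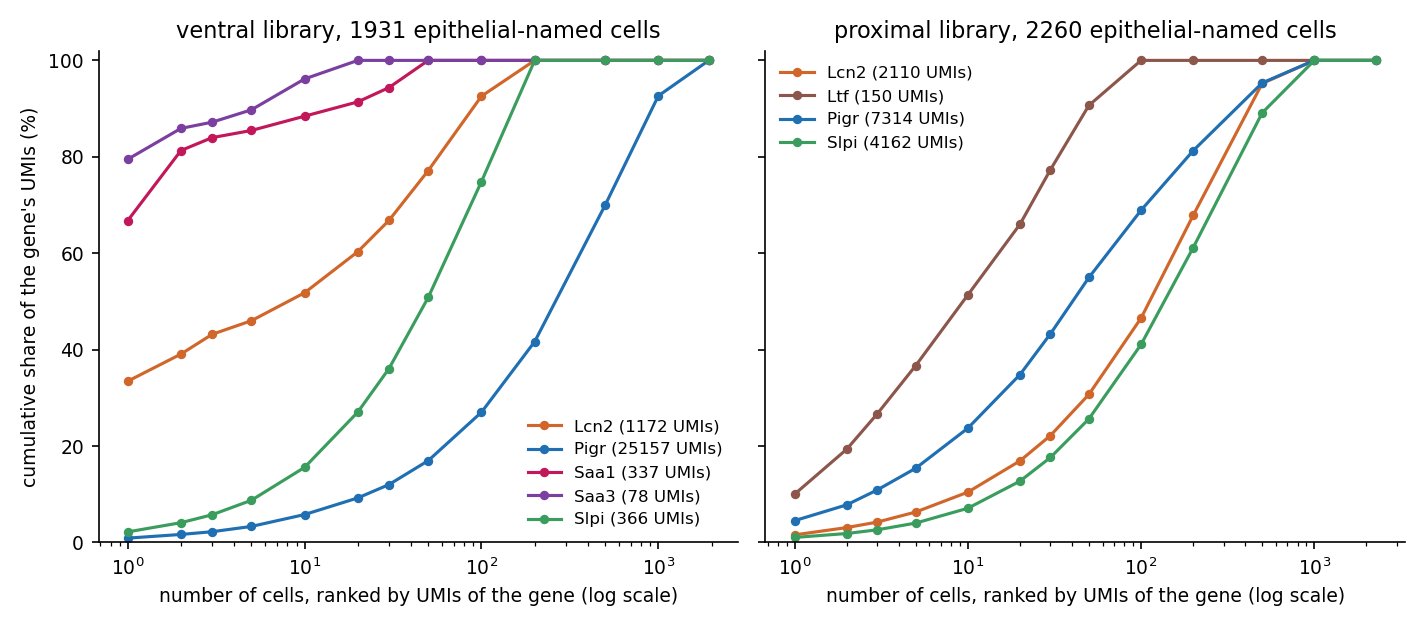
Cumulative share of a gene's UMIs (vertical axis, percent) held by the top cells, ranked by UMIs of that gene (horizontal axis, log scale), over epithelial-named cells of the ventral (1931) and proximal (2260) library, for genes with at least 50 UMIs. The curves of Saa3 and Saa1 start at 79.5% and 66.8% with the first ventral cell, and that of Pigr at 0.890%.

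Counts of the 7 genes past 2-fold were set beside the same count over all genes with at least 50 UMIs in the cells compared. Proximal over distal luminal-like cells had 4 of 5 genes higher (Lcn2, Pigr, Saa1, Saa3) and 0 lower in the ventral library, where 39.6% of all genes were higher, 2.57% lower and 42.2% past 2-fold. Among proximal cells 2 of 4 were higher (Ltf, Slpi) and 1 lower (Pigr), beside 24.4%, 16.8% and 41.2% of all genes. The Pigr call depends on the distal luminal-like cluster led by Scgb2b7. The rest of that class had 60.4 CPM against 46.0 CPM in proximal luminal-like cells, short of 2-fold. Basal-like over proximal luminal-like cells had Lcn2 higher (2.38-fold in the ventral and 77.2-fold in the proximal library, and 58.4-fold in the ventral without the cells rich in Sbp and Spink1) and 3 of 4 lower in each library (Pigr, Saa1 and Saa3 in the ventral, Ltf, Pigr and Slpi in the proximal). All genes gave 11.7% higher, 21.3% lower and 33.0% in all in the ventral, and 13.4%, 13.2% and 26.6% in the proximal library. These comparisons share the proximal luminal-like cells, and Saa3 enters the ventral counts only through the cell with 62 of its UMIs. With the 28 ventral cells and 4 basal-like cells rich in Sbp and Spink1 left out, 1 of 4 genes passed for proximal over distal luminal-like cells (Lcn2), beside 51.8% of all genes higher and 3.36% lower. Then 2 of 2 passed for basal-like over proximal luminal-like cells (Lcn2 higher, Pigr lower), beside 9.70% and 25.7%.

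Macrophage-like over epithelial-named cells had Lyz2 higher in both libraries. Lower were 1 of 6 genes in the ventral (Pigr) and 3 of 5 in the proximal library (Lcn2, at least 10.1-fold against the floor of 3 counts, Pigr and Slpi). All genes gave 22.6% higher, 8.42% lower and 31.0% in all in the ventral, and 15.6%, 26.2% and 41.8% in the proximal library. Between libraries, proximal over ventral, Slpi was higher and Pigr lower in all 3 classes by their sums. In distal luminal-like cells the size of the Pigr difference depends on the clusters held. Pigr stood at 480 CPM in the proximal cluster led by Scgb2b7 and at 537 CPM in ventral cells outside the cluster led by Msmb. In basal-like cells the Pigr difference rests on 12 and 43 UMIs, at the background share. Lcn2 was lower in proximal luminal-like and basal-like cells, the latter at 0.170 times (0.155 to 0.186). The proximal basal-like class includes the cluster led by Grp, Ivl and Aqp3, and its other clusters stood at 228 CPM, still under the 908 CPM of the ventral class. Without the 28 ventral cells the Lcn2 ratio in proximal luminal-like cells was 0.129 (0.0634 to 0.287), beside 0.00524 with them. Saa1 and Saa3 were lower in proximal luminal-like cells. Without the 28 cells rich in Sbp and Spink1 the ventral class has 0 UMIs of Saa1 and 1 of Saa3, and 3 of 4 genes pass in that class (Slpi higher, Lcn2 and Pigr lower) in place of 5 of 6, beside 16.1% of all genes higher and 21.7% lower. With all cells kept, 1 of 4 was higher and 1 lower in distal luminal-like cells, where all genes gave 41.3%, 2.17% and 43.5% in all. In proximal luminal-like cells, with the 28 included, 1 of 6 was higher and 4 lower (23.7%, 15.8%, 39.5%). In basal-like cells 1 of 3 was higher and 2 lower (30.9%, 17.0%, 47.9%). The shares of all genes past 2-fold were large in every comparison, so a count of members is read against them.

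Related genes, taken from fixed lists, were followed through the same comparison of proximal over distal luminal-like cells, where 24.4% of all genes were higher and 16.8% lower in the proximal library. Of 21 other secreted antibacterial genes, 9 could be compared in the proximal library, and 3 were higher and 4 lower. Higher were the whey acidic protein gene Wfdc2, by 17.2-fold (748 against 43.5 CPM), Wfdc15b, and the peptidoglycan-binding gene Pglyrp1, by 36.1-fold (210.3 against 5.83 CPM). Wfdc3 (19.3 against 2264 CPM) and the defensin gene Defb1 (23.9 against 2321 CPM) were lower, as were Ang and Itln1. Of 19 other acute-phase genes, 5 could be compared: Cd14 (5.53-fold), Cp (3.33-fold) and Lbp (3.18-fold), a pair of lipopolysaccharide-binding proteins and a copper carrier, were higher, and Hpx and Lrg1 (0.230 times) were lower. The 2 lists had median log2 ratios of -0.83 and 1.67, beside 0.13 for all genes tested. The immunoglobulin A list had too few UMIs for this comparison in the proximal library.

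Receptors and inducers of acute-phase genes were compared in the same way, in a list that also holds inhibitors such as Nfkbia, Socs3 and Il1rn. Of 19 genes compared in the proximal library 13 were higher and 0 lower, beside 24.4% and 16.8% of all genes, with a median log2 ratio of 1.65 beside 0.13 for all genes. In the ventral library 13 of 18 were higher and 0 lower, beside 39.6% and 2.57% of all genes, with a median of 1.42 beside 0.82. Without the 28 cells rich in Sbp and Spink1, 13 of 18 were higher and 1 lower, beside 51.8% and 3.36% of all genes, with a median of 1.89 beside 1.09. The interleukin-1 receptor antagonist Il1rn had 9.42 against 0.527 CPM (17.9-fold), the lipopolysaccharide receptor Tlr4 281 against 25.7 CPM (10.9-fold), and the transcription factors Cebpd and Cebpb were 7.18-fold and 4.78-fold higher in the proximal library. Of receptors for the secreted proteins, Anxa2, a binding partner named for Slpi, was 17.9-fold and Plscr1 3.17-fold higher, while the lipocalin receptor Slc22a17 was 0.482 times as high and Lrp1, which takes up lactoferrin, was within the limit at 1.64-fold. The list of receptors, inducers and inhibitors was also compared in basal-like over proximal luminal-like cells. In the proximal library 4 of its 19 genes were higher (Tnfrsf1a, Nfkbia, Nfkb1, Socs3) and 2 lower (Il1rn, Tlr4), beside 13.4% and 13.2% of all genes. In the ventral library 4 of 10 were higher (Tnfrsf1a, Nfkbia, Cebpb, Socs3) and 0 lower, beside 11.7% and 21.3%. Without the cells rich in Sbp and Spink1 it was also 4 of 10 and 0, beside 9.70% and 25.7%.

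The 7 genes did not share 1 pattern. Over 31 clusters of at least 20 cells in both libraries, Pearson's r of log2(CPM + 10) between Lcn2 and the other members lay between -0.31 with Pigr and 0.41 with Saa3. Saa1 and Saa3 had r = 0.99, and Ltf and Slpi 0.59; r was not computed without the cell that leads both Saa sums. Among 7914 other genes, those nearest to Lcn2 were Nrtn, Fmod and Fam13a (0.79, 0.76 and 0.75), and those nearest to Ltf were Cxcl17, Ppp1r1b and Aspa (0.93, 0.91 and 0.89). Slpi lay nearest to Exd1, Tango6 and Gsto2 (0.90, 0.88 and 0.88) and Pigr to Gjb2, Pgap2 and Mlph (0.92, 0.91 and 0.91). Saa1 and Saa3 shared Nxpe2 (0.85 and 0.84) and Cracr2a, followed by Arhgef38 for Saa1 and Fam13a for Saa3. Both Saa genes stood out only in the ventral proximal luminal-like cluster, where 1 cell held 225 of 287 Saa1 and 62 of 63 Saa3 UMIs. Their nearest genes therefore rest mainly on that cluster. Lyz2 lay nearest to the macrophage markers C1qb, C1qa and C1qc (0.99, 0.98 and 0.98). Clusters of a library share its kit and depth, so these are descriptions of likeness. Within cells, 64.0% of proximal basal-like cells with Slpi also had Lcn2, against 54.4% of those without, at medians of 12629 and 11711 UMIs. Of proximal luminal-like cells with Ltf in the proximal library, 68.4% also had Pigr, against 50.5% of those without, at medians of 38155 and 22789 UMIs.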

How the data were processed

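Single-cell suspensions of 1 ventral and 1 proximal library were run on the 10x Genomics platform with a target of 5000 cells, per the labels' protocols. The deposited files hold raw UMI counts from Cell Ranger 7.0.0, per the file headers, with 1 value for each gene in each barcode. The build is mm10 per the submitters' processing notes, and the annotation release is not given in the sources used here. The authors recorded no normalization of these counts.

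The 7 genes and the related lists were chosen with earlier results of these data known. Barcodes with fewer than 500 genes or over 10% mitochondrial UMIs were removed (226 ventral, 635 proximal), as were 11 doublets called by Scrublet, a rate at which the caller has not worked. Cells were scaled to 10000 UMIs and log-transformed, and 2000 variable genes without the 7 genes gave 30 principal components, 15 neighbours and Leiden clusters at resolution 1 (seed 0). Clusters were named by their best-scoring marker class, with at least 3 markers found in 25% of the cells and higher than in other clusters. No name was given where markers of another class outnumbered the own ones among the 10 leading genes. Of 149 markers, 148 had a single row. Ratios used genes with at least 50 UMIs in the cells compared, and a gene was called higher or lower past 2-fold. The exact 95% interval of a ratio, conditional on the total, is given beside it and was not part of the call. A count of 0 was given a floor of 3 counts. From each list of related genes up to 4 were named by size of the proximal over distal luminal-like ratio in the proximal library, and other listed genes were named after their values were seen. Likeness named the 3 nearest genes over clusters of at least 20 cells, among genes with at least 200 UMIs in each library. Cells were thinned to 1000 UMIs without replacement.

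In simulated data with 200 of 32285 genes changed, 4-fold changes were recovered for 100% of genes in both libraries, and 3-fold changes for 98% (ventral) and 99.5% (proximal). These recovery values are per library. Recovery at the UMI totals of the separate cell classes, or for sums carried by few cells, was not tested. Alternatives covered filters, doublets, resolution, scaling, UMI minimum, fold limit, free RNA and single cells. One in which unnamed clusters took their best-scoring class was chosen after seeing the data. So was leaving the Sbp-rich and Spink1-rich cells out of the count of receptors, inducers and inhibitors and out of the ventral macrophage-like values. Tools were matplotlib 3.10.9, pandas 2.3.3, numpy 2.4.6, scipy 1.17.1, igraph 0.11.9, anndata 0.12.19 and scanpy 1.11.5 under Python 3.11.15. Positions and promoter sequences come from RefSeq tables of GRCm38.p6.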

Additional observations from a re-analysis of the deposited data

Results flagged for a closer look

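Proximal luminal-like over distal luminal-like cells gave effects of opposite direction in the libraries for 2 genes. For Pigr the ratio was 2.86 (ventral) and 0.249 (proximal), and without the 28 ventral cells rich in Sbp and Spink1 the ventral ratio was 1.80 (1.65 to 1.95), under the 2-fold limit. The size of the proximal ratio depends on the cluster led by Scgb2b7. Outside it, distal luminal-like cells had 60.4 CPM, less than 2-fold above the 46.0 CPM of proximal luminal-like cells. For Saa1 it was 215 in the ventral library, where 5 cells held all UMIs of the higher class, and 0.135 in the proximal library, from 26 UMIs, too few for a call. Without the 28 cells the ventral proximal luminal-like class held 0 UMIs of Saa1, so the opposite direction rests on those cells. The difference between the libraries was not tested, since each has 1 library.

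Barcodes removed by the cell filter also held UMIs of these genes. In the 226 removed ventral barcodes there were 8 UMIs of Lcn2, 239 of Pigr and 7 of Slpi. In the 635 removed proximal barcodes there were 25 of Lcn2, 27 of Ltf, 623 of Pigr, 5 of Saa3, 211 of Slpi and 20 of Lyz2.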

How the results depend on the processing

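Of the counts of genes past a limit, 115 values under the alternatives stayed within 1.5 times and 13 moved. Of the other values, 452 stayed and 113 moved, 29 of them shares of cells taken without thinning. Of 301 values of ratios past 2-fold, 0 changed sign, and another 9 could not be computed, among them Saa1 in all 3 comparisons with the ventral proximal luminal-like class without the 28 cells rich in Sbp and Spink1, where that class holds 0 UMIs, and Pigr in basal-like cells between libraries with free RNA subtracted. Of 204 values of ratios short of 2-fold or with too few UMIs, 8 changed sign: 5 of Saa3, 2 of Ltf and 1 of Lyz2. For Ltf the log2 ratio between libraries in proximal luminal-like cells went from -0.41 to 0.09 without the top cells, and that of proximal macrophage-like over epithelial cells from -0.11 to 0.53 by mean CPM per cell. Leaving out cells of other classes rich in Sbp and Spink1 (past 5%) gave, in the ventral library, 1 gene past 2-fold for proximal over distal luminal-like cells (4 otherwise), 2 for basal-like over proximal luminal-like cells (4), and 0 genes with over 10% in the top cell (3). It gave 3 for proximal over ventral proximal luminal-like cells (5). Leaving out the top cell gave 1 gene with over 10% in the then top cell in each library (3 ventral, 0 proximal). The proximal count was also 1 with at most 20% mitochondrial UMIs and at Leiden resolution 0.5. The mean CPM per cell gave 2 for basal-like over proximal luminal-like ventral cells. Without the UMI minimum, 5 genes passed for proximal over distal luminal-like proximal cells (3) and 4 for proximal over ventral distal luminal-like cells (2). A 3-fold limit gave 1 for macrophage-like over epithelial ventral cells (2) and 1 for proximal over ventral distal luminal-like cells (2). The top-cell counts were not run with free RNA subtracted or without the UMI minimum. No paired analysis was possible because each group has 1 library, and leaving out a replicate was likewise not possible. Depth limits Saa1, Saa3 and Ltf, whose sums were small in most classes.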
